A study of Drosophila melanogaster with 24 samples.

Results

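The ecdysone receptor and response genes described here are 10 genes chosen by symbol: EcR, usp, br, Eip74EF, Eip75B, Eip78C, Eip93F, ftz-f1, Hr39 and Eip71CD. All 10 were found among the 13234 genes of the authors' deposited table, and none lacked an adjusted p-value. RNA was measured in dissected fat body of virgin w1118 Drosophila melanogaster females, a strain with a mutation in the white eye colour gene. The study had 4 groups of 6 libraries: 11 °C with ethanol, 11 °C with S-methoprene, 25 °C with S-methoprene, and 25 °C with ethanol. S-methoprene is a synthetic analogue of juvenile hormone, and it was given as a vapour from 10 µL of an ethanol solution every 2 days, with the same volume of 99% ethanol as the vehicle. Flies were 25 days old and had been reared at 25 °C before they were moved, within hours of eclosion, to their condition. Each library pooled 25 flies, kept for dissection only if the ovaries had the form called for by the condition. Regressed ovaries were required at 11 °C with the vehicle, and large ones in the other 3 groups.

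The deposited table holds 1 comparison and no value per library, and it says neither which factor was compared nor which way its fold changes run. Each gene is therefore given as higher on the positive or on the negative side, without linking a side to cold, warmth, hormone or vehicle. The spread between libraries enters only through the deposited standard errors (SE). The values were a mean normalised read count, a log2 fold change of the positive over the negative side, its SE, and a p-value with its adjusted value, and a gene was called where the adjusted p was under 0.05.

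Ecdysone is the steroid hormone of insects. Its active form, 20-hydroxyecdysone, binds a pair of nuclear receptors, EcR and the retinoid X receptor homologue usp, and the bound pair switches on a small set of early transcription factors, which in turn switch on or repress later genes. The cascade is best known from the moults and metamorphosis of the fly, when fat body is remodelled. In adult females the ovary is a main source of the hormone, and ecdysone and juvenile hormone act together on egg production.

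Of the 10 members, 6 were called in the authors' deposited table, 4 of them positive and 2 negative. The positive ones were Eip93F, Hr39, ftz-f1 and Eip74EF, and the negative ones were Eip71CD and usp. EcR, br, Eip75B and Eip78C were not called. Of the 11399 genes tested in the deposited table, 49.0% were called, with 27.0% positive and 22.0% negative, so that calls among the members were about as common as among genes at large. When a log2 change beyond 0.32 was required in place of a change from 0, 3 members were called, Eip93F and Hr39 as positive and Eip71CD as negative, against 20.7% of all tested genes, 12.3% positive and 8.40% negative. The median log2 fold change of the members was 0.44, beside 0.07 over all genes tested. Fold changes of the members ran from -1.78 to 1.02 on the log2 scale of the deposited table.

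**Figure D1:**
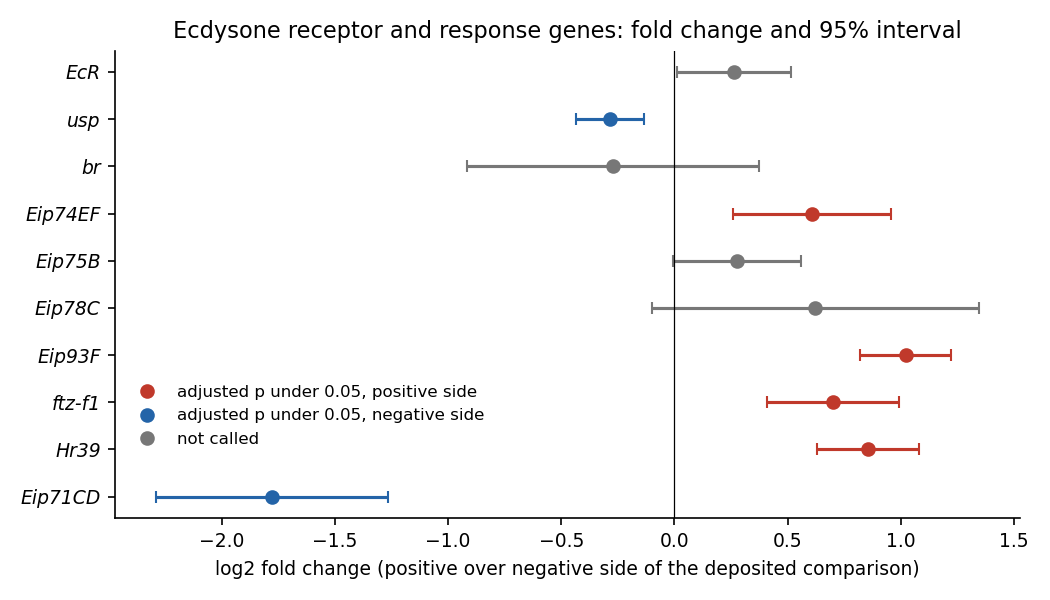
Log2 fold changes of the 10 members in the authors' deposited comparison (points), with 95% intervals from the deposited standard errors (bars), red for genes called on the positive side, blue for genes called on the negative side and grey for genes not called. Eip93F, at 1.02, lies farthest to the positive side and Eip71CD, at -1.78, farthest to the negative side, and the receptor partners EcR and usp lie on opposite sides of 0.

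The members differed widely in level. Per kilobase of annotated exon, the mean normalised count in the deposited table was 178 for Eip71CD, 118 for usp, 70.3 for Eip75B and 59.4 for Eip93F. A middle group followed, with 21.5 per kilobase for Hr39, 20.1 for EcR, 17.8 for ftz-f1 and 12.4 for Eip74EF in the deposited table. At the low end were br with 1.31 and Eip78C with 1.20 per kilobase, both deposited means. These are means over the libraries of the authors' fit, with no error of their own, so which neighbours in this order differ beyond their spread is not known. The exon length joins all annotated isoforms, at 20.2 kb for br and 13.5 kb for Eip75B. Their longest transcripts are 9.82 kb and 8.24 kb, so the order depends in part on the length used. Before division by length, 8 of the 10 members had a deposited mean above 81.8, the median of tested genes, and the exceptions were br and Eip78C.

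**Figure D2:**
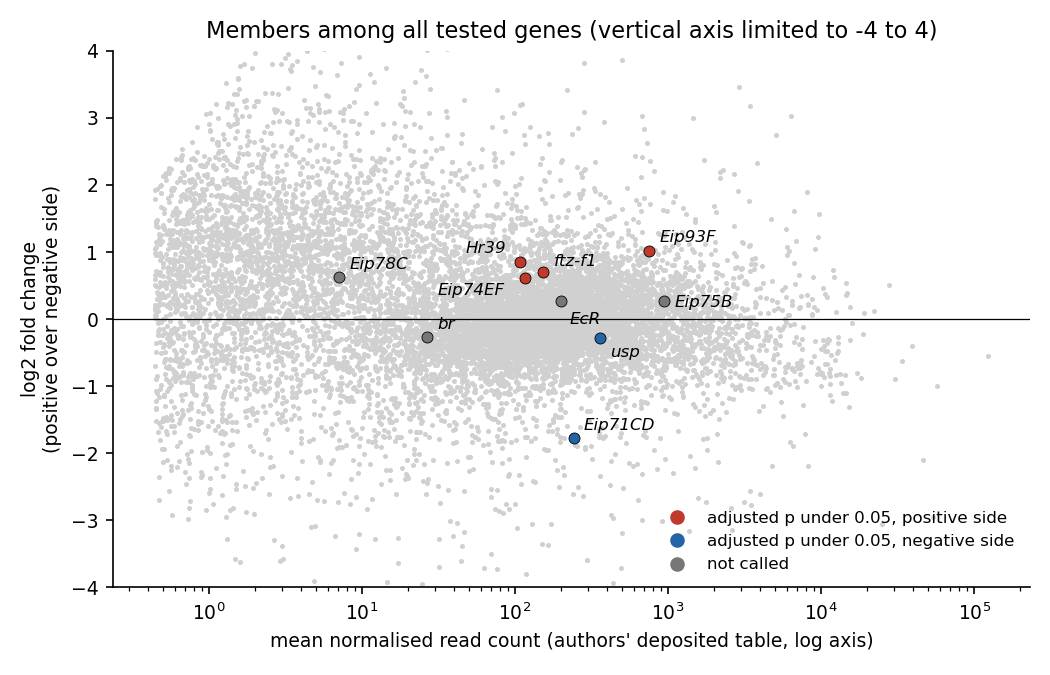
Mean normalised read count (horizontal, log axis) and log2 fold change (vertical, limited to -4 to 4) of all tested genes (pale grey) and of the 10 members (larger points, coloured by call) in the authors' deposited table. Eip78C, at a mean of 7.07, sits where fold changes of single genes scatter widely, while Eip93F, at a mean of 753, has a fold change above that of 84.1% of tested genes.

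The receptor partners had estimates of opposite sign, of which only that of usp was called. EcR, the receptor that binds the hormone, had a mean of 200 and a log2 fold change of 0.26 in the authors' deposited table (SE 0.13, p = 0.0395, adjusted p = 0.0750), and was not called. Its 95% interval ran from 0.01 to 0.51, a ratio between 1.01 and 1.43. Its partner usp had a mean of 359 and a log2 fold change of -0.28 in the deposited table (SE 0.08, adjusted p = 0.000798), which is 1.22-fold higher on the negative side. Its SE was small for its level: only 9.0% of the 200 tested genes of nearest mean had a smaller one. The difference between the fold changes of EcR and usp was 0.55 on the log2 scale, so that the ratio of EcR to usp RNA was 1.46-fold higher on the positive side. How the estimates of these genes vary together is not given, but the SE of the difference cannot exceed 0.21, the sum of their SEs, which puts the 95% interval within 0.15 to 0.95. A scaling factor common to all genes of a library cancels in this difference, but the relation of fold change with RNA length described below need not. The longest transcript is 8.42 kb for EcR and 3.04 kb for usp. Centred within bins of RNA length and mean, EcR stood at 0.00 and usp at -0.33. The 95% intervals of these values, -0.25 to 0.25 and -0.48 to -0.18, overlap. Whether the difference between EcR and usp holds after centring was not tested.

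EcR (FBgn0000546) lies on 2R from 6087873 to 6169087 and usp (FBgn0003964) on X from 2038798 to 2042311, in release 6 coordinates (dm6). EcR spans 81.2 kb with 6 annotated transcripts, whereas usp is compact, at 3.51 kb. The exons of usp share 265 bases, or 8.72% of its exon length, with Actn on the same strand, which encodes the actin crosslinker alpha-actinin and was called on the positive side in the deposited table (log2 fold change 0.77, SE 0.13). They share a further 196 bases with CG4313 on the opposite strand, also called on the positive side in that deposited table (0.67, SE 0.26). The sources used here do not say how reads in shared bases were assigned. No exon of EcR shares bases with another annotated gene.

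Among the 5 early transcription factors, 2 were called, both on the positive side. Eip93F, or E93, a DNA-binding protein of the pipsqueak type that directs tissue remodelling late in metamorphosis, had a mean of 753 and a log2 fold change of 1.02 in the authors' deposited table (SE 0.10, adjusted p = 2.73e-21). It was 2.03-fold higher on the positive side, with a 95% interval of 1.76 to 2.33, and by the size of its deposited statistic it ranked 189 of 11399 genes. Eip74EF, an ETS-domain factor, had a mean of 116 and a log2 fold change of 0.61 in the deposited table (SE 0.18, adjusted p = 0.00217), with an interval of 1.19-fold to 1.94-fold.

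Eip75B, a haem-binding nuclear receptor that represses other receptors of the cascade, was the member with the highest mean, 946, and was not called. Its log2 fold change in the deposited table was 0.28 (SE 0.14, adjusted p = 0.0987), with an interval of -0.01 to 0.56. Its relative Eip78C, a nuclear receptor with a part in egg development, had a mean of only 7.07 and a log2 fold change of 0.62 in the deposited table (SE 0.37, adjusted p = 0.151). The difference of Eip75B minus Eip78C was -0.35, and with the largest SE it can have, 0.51, its interval of -1.35 to 0.66 covers 0. The zinc-finger factor br, or broad, which specifies pupal development and is also used in follicle cells, had a mean of 26.5 and a log2 fold change of -0.27 in the deposited table (SE 0.33, adjusted p = 0.511). These intervals are wide for the low genes: at their SEs, the smallest log2 change that could have been called was 0.83 for Eip78C and 0.74 for br, against 0.32 for Eip75B and 0.29 for EcR.

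Eip93F (FBgn0264490) lies on 3R from 21949114 to 22014539. The early genes on 3L are Eip74EF (FBgn0000567) from 17558672 to 17619325, Eip75B (FBgn0000568) from 17950953 to 18064696 and Eip78C (FBgn0004865) from 21226609 to 21266503, and br (FBgn0283451) lies on X from 1575132 to 1664869. These are long genes with several annotated starts. The annotation gives br 16 transcripts from 9 start positions, Eip75B 7 from 7 and Eip74EF 5 from 3. Since the deposited table has 1 row for each gene, isoforms with different roles, such as those of br with different zinc fingers, are summed in these values.

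Both later nuclear receptors, ftz-f1 and its relative Hr39, were called on the positive side. ftz-f1, the competence factor that readies prepupal tissues for the next ecdysone pulse, had a mean of 153 and a log2 fold change of 0.70 in the authors' deposited table (SE 0.15, adjusted p = 1.38e-05), a 1.62-fold difference. Hr39, which in adult females is needed for the secretory glands of the reproductive tract, had a mean of 107 and a log2 fold change of 0.85 in the deposited table (SE 0.11, adjusted p = 1.38e-12), a 1.81-fold difference. Hr39 minus ftz-f1 gave 0.16, and with the largest SE it can have, 0.26, the interval of -0.36 to 0.67 covers 0. ftz-f1 (FBgn0001078) lies on 3L from 18750607 to 18801309 and Hr39 (FBgn0261239) on 2L from 21237250 to 21259675. A non-coding gene on the same strand, lncRNA:CR45939, shares 29.4% of the exon length of ftz-f1, and it had a mean of only 0.500 in the deposited table. The early embryonic and the later form of ftz-f1 are not separated in that table.

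The largest change among the members belonged to an enzyme. Eip71CD, first found as an ecdysone-induced protein in cultured Drosophila cells, encodes methionine sulfoxide reductase A, which repairs oxidised methionine, and current annotation names it MsrA. Its mean was 241 and its log2 fold change -1.78 in the authors' deposited table (SE 0.26, adjusted p = 1.58e-10), which is 3.42-fold higher on the negative side. The ratio of positive over negative side was 0.292, with a 95% interval of 0.205 to 0.417, and only 2.68% of tested genes had a lower fold change. Its SE was larger than that of 96.5% of the 200 tested genes of nearest mean, whose median SE was 0.12. Eip71CD (FBgn0000565) lies on 3L from 15511052 to 15513202, has the shortest exon length of the 10 members, 1.35 kb, and overlaps no other annotated gene.

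RNA length moved with the fold changes in the deposited table. The Spearman correlation of longest transcript and log2 fold change was 0.190 across all 11362 tested genes with a length, and 0.388 across the 5222 of these with a mean of at least 100, over genes that share the same libraries and are not independent. The members were long: the median of their longest transcripts was 6.15 kb, beside 1.86 kb over tested genes, and 8 of 10 fell in the longest of 5 equal bins. In that bin, 43.8% of genes had a positive call and 7.35% a negative call in the deposited comparison, and its 8 members gave 4 positive calls, 0 negative calls and 4 without a call. The share of genes called is thus uneven by length, and the count of positive members is close to that of other long genes.

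When each fold change was set against the median of the other genes in the same bin of RNA length and mean, Eip93F (0.77, adjusted p = 2.22e-12), Hr39 (0.59, adjusted p = 1.74e-06) and ftz-f1 (0.44, adjusted p = 0.00985) stayed called on the positive side. On the negative side Eip71CD (-1.56, adjusted p = 2.70e-08) and usp (-0.33, adjusted p = 0.000106) stayed called. The call of Eip74EF was lost (0.34, adjusted p = 0.107). By this rule 43.0% of all genes with a length were called, 22.0% positive and 21.0% negative. EcR and Eip75B came to 0.00 and 0.02, at the median of long genes of their level. Eip78C changed sign, to -0.38 (adjusted p = 0.426), because the median of the other genes in its bin was higher still than its own fold change, and br moved to -0.63 (adjusted p = 0.106). The median over the 10 members was then 0.01, against 0.44 for the deposited values. Whether the relation with length lies in the libraries or in the cells was not tested.

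**Figure D3:**
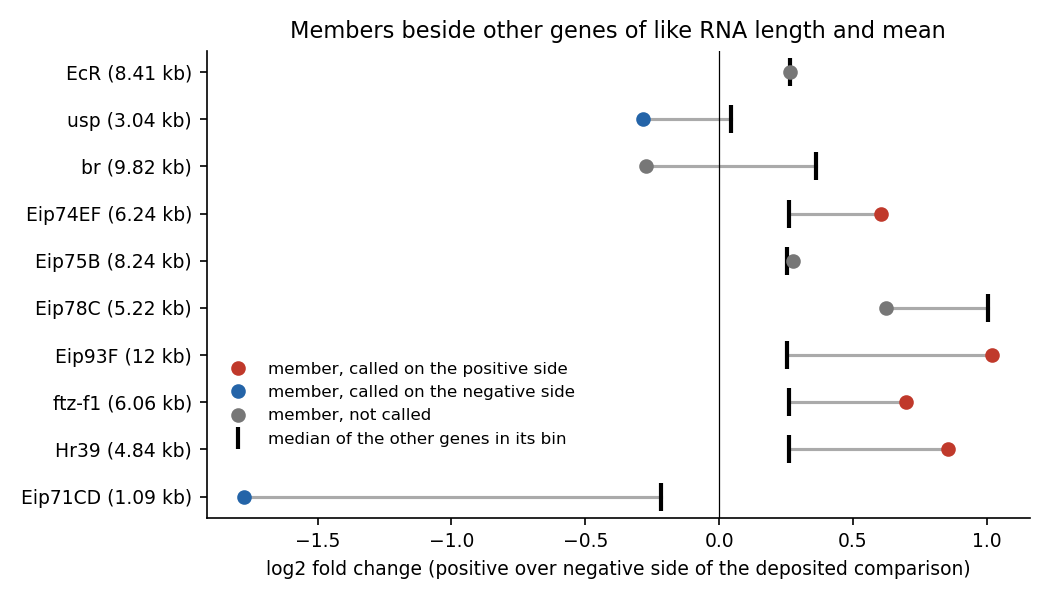
Log2 fold changes of the members in the authors' deposited comparison (points, coloured by call) and the median of the other genes in the same bin of RNA length and mean (black ticks), with the longest annotated transcript of each member in kilobases beside its name. EcR and Eip75B coincide with their ticks, whereas Eip93F, Hr39 and ftz-f1 lie to the right of theirs and Eip71CD and usp to the left.

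The other genes of ecdysone signalling were taken as a list of 47 genes in 6 roles, of which 45 were in the deposited table and 44 had an adjusted p-value. Of these 44, 20 gave a positive call and 3 a negative call, which is 52.3% called beside 49.0% of all tested genes. By side, 27.0% of all tested genes were called positive and 22.0% negative. Their median log2 fold change was 0.34 in the deposited table, beside 0.07 over all genes tested. Centred within bins of RNA length and mean, the counts became 13 positive and 7 negative of 43 with a length, with a median of 0.13. That rule called 22.0% of all genes with a length positive and 21.0% negative. Of the 45, 18 had a mean under 10.

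Both genes of hormone breakdown were called on the positive side. Eo, ecdysone oxidase, stood at 2.76 in the authors' deposited table (SE 0.31) and Cyp18a1, the hydroxylase that inactivates 20-hydroxyecdysone, at 0.61 (SE 0.15). Of the 3 genes of transport and membrane sensing, 2 were positive: the importer Oatp74D, at a log2 fold change of 0.80 (SE 0.15), and the dopamine and ecdysteroid receptor DopEcR, with a 2.38-fold change in the deposited table at a mean of only 4.10. Of the 10 synthesis genes, 2 had a positive call, 1 had a negative call and 7 had none. The positive ones were shd, whose enzyme turns ecdysone into 20-hydroxyecdysone in peripheral tissues, at 1.34 in the deposited table (SE 0.40), and Cyp6t3 at 0.97 (SE 0.18). The negative one was spo, an early enzyme of the pathway that adult ovaries express, at -2.15 in the deposited table (SE 0.81) with a mean of 6.23. The mean was under 10 for 7 of the 10 synthesis genes.

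The 9 measured cofactors gave 5 positive calls and 0 negative ones. Among them were the histone methyltransferase trr at 0.62 (SE 0.12), the nucleosome remodelling subunit E(bx) at 0.60 (SE 0.15), the coactivator tai at 0.52 (SE 0.15) and the histone demethylase Utx at 0.34 (SE 0.12) in the authors' deposited table. Centred within bins of length and mean, 2 cofactors were positive and 1 negative, so that part of this count does not hold against genes of like length. Among 9 further early response genes, 4 were positive and 1 negative in the deposited table. The calcium-binding protein gene Eip63F-1 stood at 1.03 (SE 0.17), the bZIP factor gene vri at 0.86 (SE 0.18) and the zinc-finger gene crol at 0.39 (SE 0.12), and kay, the fly Fos gene, at -0.55 (SE 0.14), all deposited values.

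Of 11 tested late and tissue genes, 5 were positive and 1 negative in the authors' deposited table. Lactate dehydrogenase, Ldh, stood at 1.12 (SE 0.20), the fat body protein gene Fbp2 at 3.27 (SE 0.58) with a mean of 4.20, the cell death gene hid at 0.63 (SE 0.14) and Eip55E, a gene of cysteine metabolism, at 0.39 (SE 0.12) in that deposited table. The negative one, rpr, another cell death gene, stood at -1.33 in the deposited table (SE 0.52, mean 3.82) and was named after its value was seen. Centred within bins of length and mean, 5 of the pathway genes named up to this point lost their positive call: DopEcR (0.26, adjusted p = 0.709), tai (0.27, adjusted p = 0.130), E(bx) (0.31, adjusted p = 0.0752), crol (0.13, adjusted p = 0.370) and hid (0.27, adjusted p = 0.0948).

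**Figure D4:**
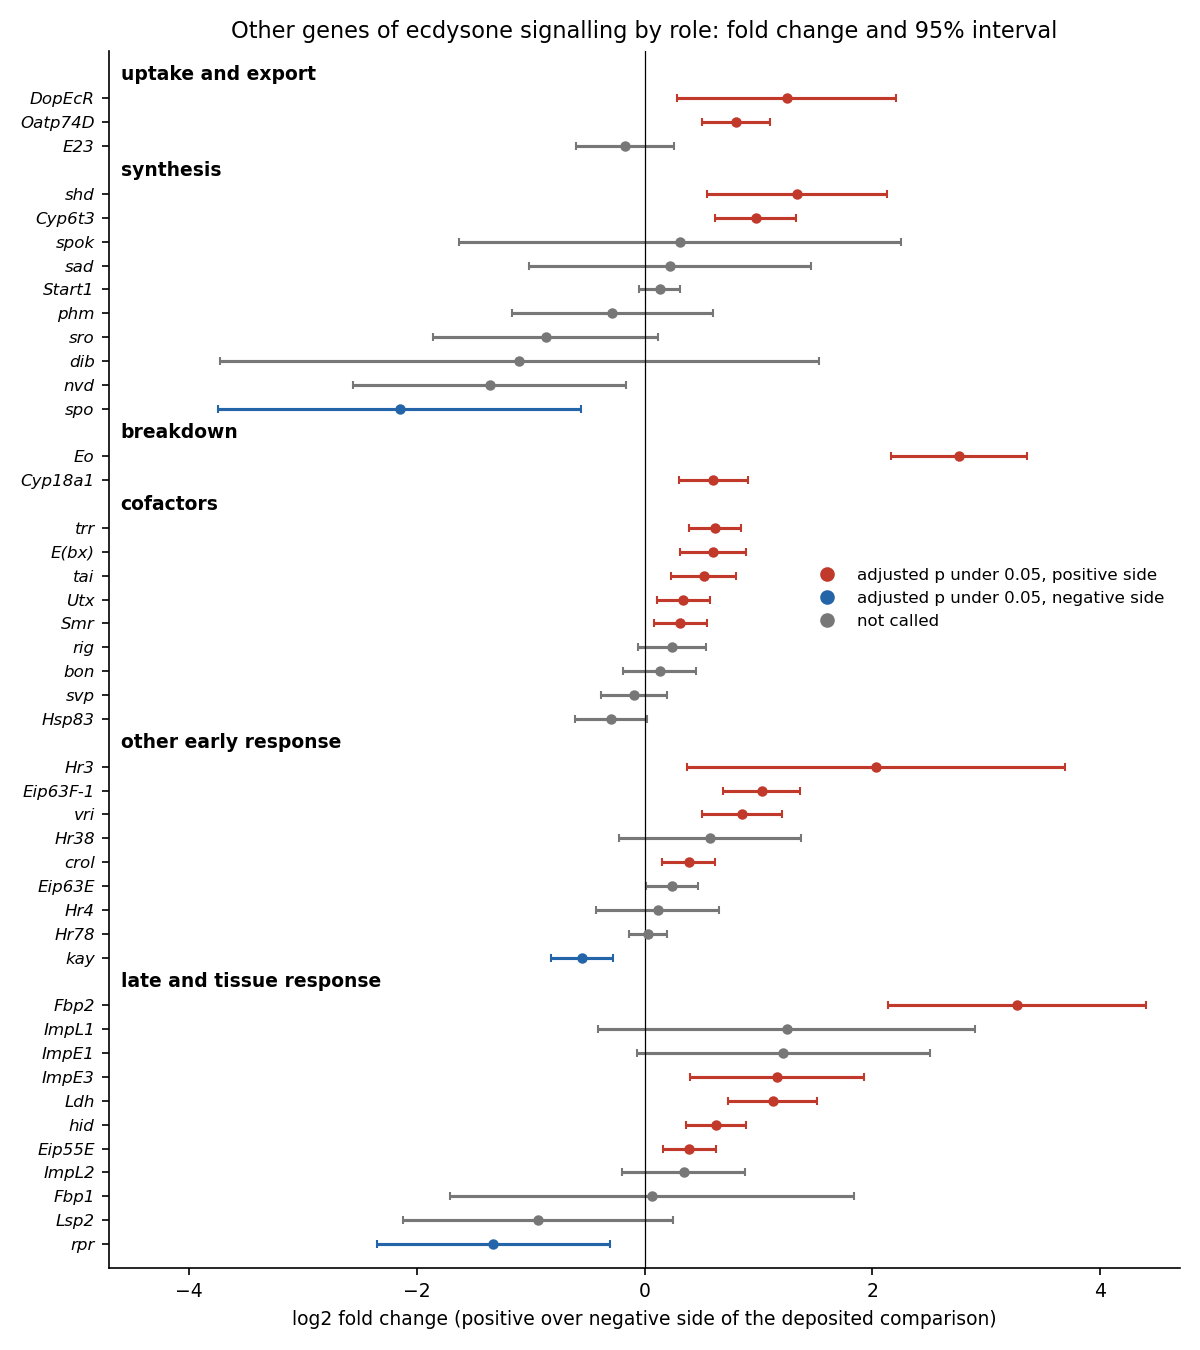
Log2 fold changes of 44 further genes of ecdysone signalling in the authors' deposited comparison, ordered by role and then by value, with 95% intervals from the deposited standard errors (bars) and colours by call. Both breakdown genes and 5 of 9 cofactors were called on the positive side, while the synthesis genes spread to both sides with wide intervals. Of all tested genes, 49.0% were called, with 27.0% positive. Centred within bins of RNA length and mean, 2 cofactors were positive and 1 negative.

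Of the members, 6 are nuclear receptors, and the other 15 genes of that family in the fly were set beside them. Hr3, Hr4, Hr38, Hr78 and svp, all tested, are also in the pathway list above, so the pathway and family counts are not separate. The 6 members of the family gave 2 positive calls and 1 negative call in the deposited comparison. Of the other 15, 10 had an adjusted p-value, and these gave 4 positive calls and 1 negative call. The median log2 fold change was 0.45 for the 6 members and 0.40 for the other 10 in the deposited table. Of those tested, 3 of 6 and 5 of 10 were called, beside 49.0% of all tested genes. Centred within bins of RNA length and mean, the medians were 0.01 and 0.00, with 2 positive and 1 negative call among the members and 2 of each among the others. Outside the members, the positive side held ERR, a regulator of sugar metabolism, at 0.54 (SE 0.12), and the negative side Hr96, a receptor of lipid and xenobiotic responses, at -0.71 (SE 0.10) in the authors' deposited table. Means of the 5 genes with no adjusted p-value were at most 0.254.

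**Figure D5:**
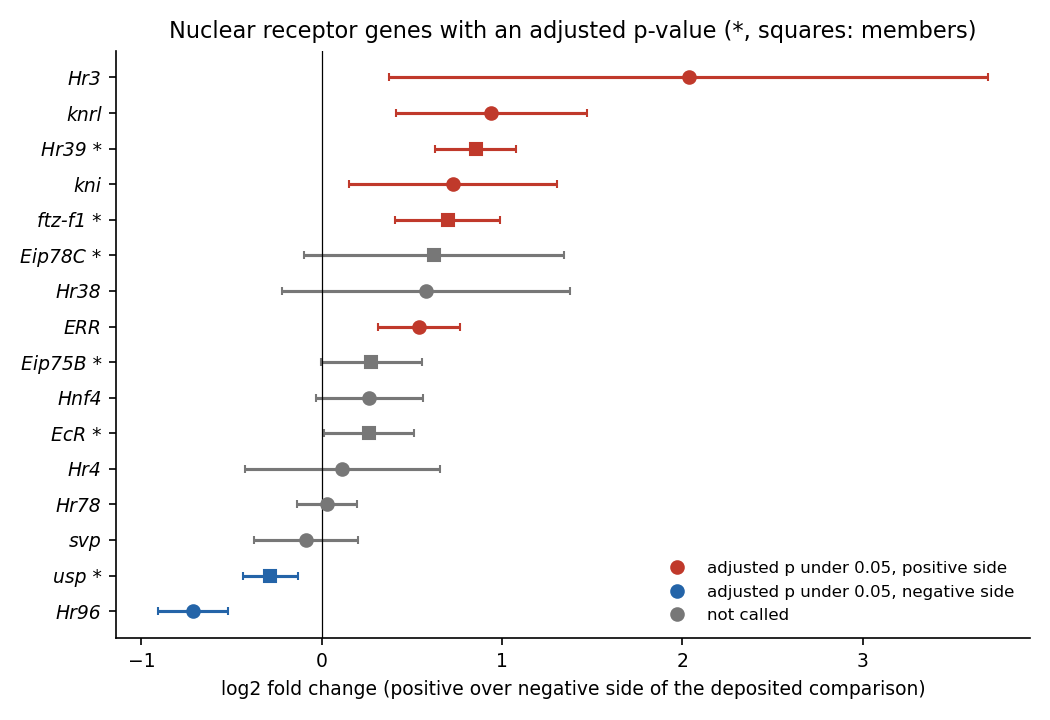
Log2 fold changes of the 16 nuclear receptor genes tested in the authors' deposited comparison, ordered by value, with 95% intervals (bars), squares and asterisks marking the 6 members. Hr39 and ftz-f1 lie in the upper part of the order, EcR and Eip75B in the middle with intervals that meet or nearly meet 0, and usp with Hr96 at the bottom.

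The dissected tissue carried RNA of genes listed as markers of other cells, and some of these were called in the same comparison. Genes listed as markers of fat body were abundant, with means in the authors' deposited table of 53598 for the yolk protein gene Yp2 and 18112 for the lipoprotein gene apolpp, and none was near 0. The 10 fat body genes gave 2 positive and 6 negative calls. Of these, Yp2 stood at -2.94 (SE 0.36) and Yp3 at -2.10 (SE 0.29) in the deposited table. Eggshell genes of ovarian follicle cells were called on the negative side for 4 of 5 tested genes, with Vm26Aa at -4.79 (SE 1.27) and Vm34Ca at -6.76 (SE 1.46) in the deposited table. Of the other 2 eggshell genes listed, which had no adjusted p-value, Cp18 stood at -2.52 (SE 1.04) and Cp36 at 2.36 (SE 1.75) in that deposited table. Germline genes gave 0 positive and 3 negative calls of 6, oenocyte genes 0 positive and 3 negative of 4, muscle genes 4 positive and 0 negative of 5, neuron genes 4 positive and 0 negative of 5, and hemocyte genes 2 positive and 0 negative of 4. Of the highest means, osk stood at -1.70 (SE 0.66) and nos, not called, at -1.58 (SE 0.78). Cyp4g1 stood at -0.55 (SE 0.15), Fad2 at -6.26 (SE 0.75), Mlc2 at 1.60 (SE 0.18) and Mhc at 0.92 (SE 0.20). In the neuron list cpx stood at 1.58 (SE 0.14) and elav at 1.69 (SE 0.16). Among hemocyte genes Pxn stood at 0.86 (SE 0.19) and Hml, not called, at -0.07 (SE 0.27), all deposited values. The deposited means sum to 2142 over the 7 follicle cell genes, 565 over the 6 germline genes, 155688 over the 4 oenocyte genes, 3546 over the 5 muscle genes, 456 over the 5 neuron genes and 1084 over the 4 hemocyte genes, beside 172691 over the 10 fat body genes, and no marker of these lists was at 0. Ovary, muscle and nerve also express several of the members, and the part of these cells in the members' values was not tested. In such bulk samples fewer cells of a type and less RNA per cell cannot be told apart.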

How the data were processed

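Fat body RNA was profiled in 24 libraries of 4 groups, taken from the labels. The submitters' processing notes list DESeq2, Bowtie2, Picard, SAMtools, cutadapt, FastQC and Trim Galore, with build dm6 and no roles. The sources used here do not give the counter, strand setting, annotation or model. Per the file headers, the authors deposited for each gene a mean normalised read count (signal unit), a fold change and its SE on the log2 scale, a test statistic (score), and a p-value with its adjusted p-value. On the values, the statistic equals fold change over SE and the adjusted p-value is Benjamini-Hochberg over 11399 genes. The labels do not say whether libraries came from separate cultures, so the p-values measure only the spread between these libraries, which may be technical. Depth per library is unknown. The planned tests on values per library gave way to the authors' test.

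With Python 3.11.15, intervals of 95% were computed from the SEs, and genes were placed on Ensembl release 115 by symbol (12521 genes) or RefSeq synonym (664 genes). Bins of length and mean were 5 by 5. Procedures were also run on simulated data, and no result given here rests on them. Members and lists were chosen with earlier results of these data known. All members are named. Of each role the up to 4 smallest adjusted p-values are named, and of the marker lists the highest means. Actn, CG4313, apolpp, Cp18, Cp36, lncRNA:CR45939, rpr, kni, knrl, Hr3, Hr4, Hr38, Hr78 and svp fall outside that rule. No gene of like pattern is named, since that needs values per library.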

Additional observations from a re-analysis of the deposited data

How the results depend on the processing

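No paired analysis was possible because the deposited table holds no value per library, and for the same reason fits without single libraries and other count models were not run. Of 72 counts recomputed under the alternatives, 53 stayed within 1.5 times. Tested against a log2 change beyond 0.32, the members called numbered 3 (2 positive, 1 negative), with usp, ftz-f1 (adjusted p = 0.0527) and Eip74EF lost. That bound left 8 of 44 tested pathway genes (8 positive, 0 negative) and 2 of 16 nuclear receptors (1 and 1). Of all tested genes it left 20.7%, with 12.3% positive and 8.40% negative. With a mean of at least 100, counts were 12 of 19 tested (11 positive, 1 negative) for the pathway and 5 of 10 (3 positive) for the receptors. Of the 5238 genes with such a mean, 58.6% were called, 29.4% positive and 29.2% negative. The pathway's negative calls numbered 1 at an adjusted p under 0.01, with Benjamini-Yekutieli adjustment and with a mean of at least 10. Of the genes that each of those settings tested, 17.4%, 16.0% and 28.2% were called on the negative side, and 38.2%, 35.0% and 56.3% on either side. Centred within bins of RNA length and mean, the pathway gave 13 positive and 7 negative calls, Eip78C turned to -0.38 and Eip74EF lost its call (0.34). Centring on the median of genes with a mean of at least 100 (0.01) and shrinkage kept the side and call of each of the 10 members in all 20 recomputed fold changes. Low means limit Eip78C and br, and unknown depth limits every level given.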
